A study of Mus musculus with 2 samples.

Results

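The data describe how the endothelium of the AGM (aorta-gonad-mesonephros) region differed from that of the yolk sac in mouse embryos at embryonic day 9.5 (E9.5). The members are the wells labelled VE-cadherin positive with 500 or more genes detected on the E9.5 chip: 299 wells of the AGM and 325 of the yolk sac, 624 of the 2954 wells of the series. The embryos were wildtype C57Bl/6. Cells of each tissue were sorted as live (negative for the dye 7AAD) and VE-cadherin positive or negative, dispensed on an ICELL8 chip, a nanowell format in which a well is imaged and taken if it holds a single live cell, and sequenced after reverse transcription and amplification. The same 4 pools (AGM and yolk sac, positive and negative) were processed at E11.5 on another chip, so stage and chip cannot be told apart. How many embryos went into a pool is not given in the sources used here.

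The AGM is the region around the embryonic aorta where definitive blood stem cells arise from endothelium that switches on Runx1. The yolk sac is the extra-embryonic membrane that makes the first red cells, macrophages and megakaryocytes, and its own endothelium gives rise to erythro-myeloid progenitors. Endothelial cells of different organs share a core set of receptors and junction proteins, and differ in programmes such as arterial fate or, in sinusoids of liver and similar beds, uptake of waste proteins through scavenger receptors.

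Each pool was 1 sample, so no test was run and no p-value is given. The raw counts of all wells in a pool were added up and scaled to 1000000 counts (CPM). The log2 ratio is AGM over yolk sac, so a negative value means higher in the yolk sac, and the 95% interval given with it is exact and covers counting error only. A gene was compared if it had 50 or more counts over the pair, and was called apart if its ratio was 2-fold or more. A value that follows a gene's name without a unit is its log2 ratio. The AGM pool held 1902499 counts and the yolk sac pool 1382810. Median counts per well were 5832 in the AGM and 3961 in the yolk sac, and median genes per well were 1831 in the AGM and 1504 in the yolk sac. In such sums, fewer cells that express a gene and less of its RNA per cell cannot be told apart, and for that reason shares of wells are given beside the levels. Haemoglobin RNA took a median of 24.4% of a well's counts in the AGM and 18.98% in the yolk sac. Negative control wells of the chip held a median of 124.5 counts, 23.1% of all their counts from haemoglobin, so a stray count in a single well need not come from its cell.

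Both pools carried the endothelial identity that the sort selects for. Of the 26 pan-endothelial genes compared, 25 lay within 2-fold between the tissues, 1 was higher in the AGM and none was higher in the yolk sac, with a median log2 ratio of -0.29 against -0.10 for all genes. Over all genes compared, 5958 of 6478 lay within 2-fold, so 25 of 26 is near the general share. Cdh5, which encodes VE-cadherin itself, had 831 counts (437 CPM) in the AGM and 668 counts (483 CPM) in the yolk sac, with a log2 ratio of -0.15 (-0.29 to 0.00). The VEGF receptor Kdr was at -0.26 (-0.44 to -0.07) and the junction protein Pecam1 at -0.25 (-0.47 to -0.04). At least 3 of 12 endothelial markers were detected in 282 AGM wells (94.3%) and 291 yolk sac wells (89.5%). In the negative gate they were detected in 0.282% of the AGM wells and 2.95% of the yolk sac wells. With each well thinned at random to 2000 counts, at least 3 were detected in 172 AGM wells (58.1%) and 223 yolk sac wells (69.9%). They were then detected in 0 wells of either negative pool. The higher AGM share as counted thus did not hold at equal depth. The exception among the 26 was Emcn, a sialomucin of venous and capillary endothelium, with 351 counts in the AGM against 83 in the yolk sac and a log2 ratio of 1.62 (1.27 to 1.98).

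Beyond that core, the difference was lopsided. Of 6478 genes compared, 126 (1.95%) were at least 2-fold higher in the AGM and 394 (6.08%) at least 2-fold higher in the yolk sac. At least 4-fold higher were 33 genes in the AGM and 101 in the yolk sac, and with an interval wholly beyond 2-fold 41 in the AGM and 160 in the yolk sac. The split depended in part on the scale. On totals weighted by TMM, a scaling by the bulk of the genes that moved the median of all genes by 0.15, 183 genes were higher in the AGM and 305 in the yolk sac, so that the AGM share of calls was 37.5% in place of 24.2%. On that scale genes named further on that lay within 2-fold were Stab1 (-0.99), Dnm2 (-0.92), Ptprb (-0.91), Sema6a (-0.88) and Fcgr1 (-0.97). All 28 genes named for the sides of this comparison were at least 2-fold apart under every scaling and filter of wells tried. They were picked from these same counts for interval bounds far from 0, so this is no further evidence for them.

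**Figure D1:**
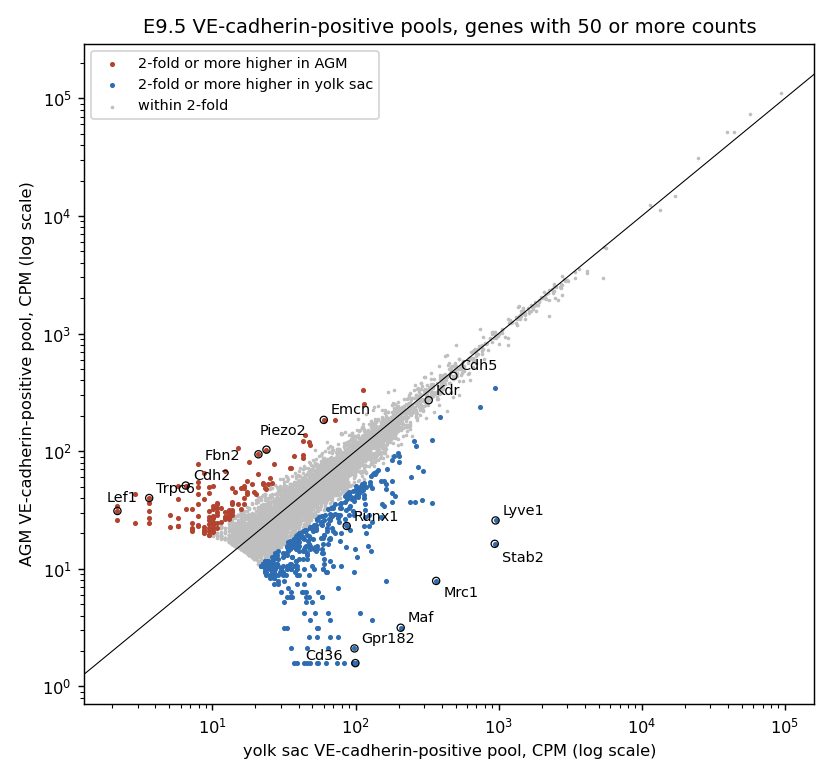
Level of each of the 6478 compared genes in the AGM pool (vertical axis, CPM, log scale) against the yolk sac pool (horizontal axis, CPM, log scale), both VE-cadherin positive at E9.5, with counts under 3 drawn at the floor of 3 counts and the line marking equal levels. Stab2 (16.3 CPM in the AGM, 939 CPM in the yolk sac) and Lyve1 (25.8 CPM in the AGM, 952 CPM in the yolk sac) stand far below the line, while the 14 genes named for the AGM lie between 31.0 and 106 CPM in the AGM.

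The yolk sac endothelium stood out by scavenger and sinusoidal-type genes. The 17 such genes listed summed to 324 CPM in the AGM and 3627 CPM in the yolk sac. Of them, 13 could be compared and 11 were at least 2-fold higher in the yolk sac (84.6%, against 6.08% of all genes), none in the AGM, with a median log2 ratio of -4.84. The other 4 had too few counts. Stab2, a receptor that clears hyaluronan and other waste from blood (chromosome 10, 86841198 to 87008025 in GRCm38, minus strand), had 31 counts in the AGM against 1299 in the yolk sac, or 16.3 CPM in the AGM against 939 CPM in the yolk sac, at a log2 ratio of -5.85 (-6.41 to -5.34). Lyve1, a hyaluronan receptor best known from lymphatic and sinusoidal vessels (chromosome 7, 110850607 to 110863239, minus strand), had 49 counts in the AGM against 1316 in the yolk sac, with a log2 ratio of -5.21 (-5.65 to -4.80). These were the genes on the yolk sac side with the most counts among those named, and most yolk sac wells held them. Stab2 was detected in 9.36% of AGM wells and 88.6% of yolk sac wells, and Lyve1 in 15.4% of AGM wells and 92.9% of yolk sac wells. In VE-cadherin-negative wells, Stab2 was found in 4.24% of those of the AGM (median 4396 counts per well) and 10.2% of those of the yolk sac (median 12452), and Lyve1 in 10.2% of AGM-negative and 14.1% of yolk-sac-negative wells. With each well thinned to 2000 counts, Stab2 was found in 3.04% of AGM-positive and 76.5% of yolk-sac-positive wells, and in 1.13% of AGM-negative and 1.64% of yolk-sac-negative wells. Lyve1 was then found in 4.05% of AGM-positive and 80.6% of yolk-sac-positive wells, and in 4.52% of AGM-negative and 1.64% of yolk-sac-negative wells.

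The other scavenger genes followed the same division. Mrc1, the mannose receptor of macrophages and sinusoidal endothelium, had 15 counts in the AGM against 506 in the yolk sac, with a log2 ratio of -5.54 (-6.38 to -4.80). Maf, a transcription factor of macrophages and of sinusoidal and lymphatic endothelium, had 6 counts in the AGM against 286 in the yolk sac, with a log2 ratio of -6.04 (-7.49 to -4.90). Cd36, a receptor for fatty acids and oxidised lipoproteins, had 3 counts in the AGM against 138 in the yolk sac (-5.98, interval -8.28 to -4.41). Gpr182, an atypical chemokine receptor of sinusoidal and lymphatic vessels, had 4 in the AGM against 136 in the yolk sac (-5.55, interval -7.44 to -4.16). Oit3, a secreted protein marking liver sinusoids, had 5 in the AGM against 104 in the yolk sac (-4.84). Colec12, a scavenger receptor of the collectin group, stood at -2.81, the recycling protein Ehd3 at -2.72, the endocytic adaptor Dab2 at -1.89 and Stab1, the relative of Stab2, at -1.14. The lipoprotein receptor Scarb1 at -0.77 and the receptor Scarf1 at -0.52 were within 2-fold. In lymphatic development Lyve1 goes with Prox1 and Flt4, but of the 5 lymphatic genes compared only Lyve1 was apart.

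Single wells showed that these genes were found together and in most of the yolk sac pool. Of Stab2, Lyve1, Mrc1, Maf, Cd36 and Gpr182, at least 3 were detected in 2 of 299 AGM wells (0.669%) and in 264 of 325 yolk sac wells (81.2%). With each well thinned at random to 2000 counts, which left 296 AGM wells and 319 yolk sac wells, at least 3 were detected in 0 AGM wells and 179 yolk sac wells (56.1%). No well of either negative pool held 3 of them, thinned or not. The 6 genes were picked from these same counts, so the shares describe how the difference is spread over wells and are no further evidence for it.

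**Figure D2:**
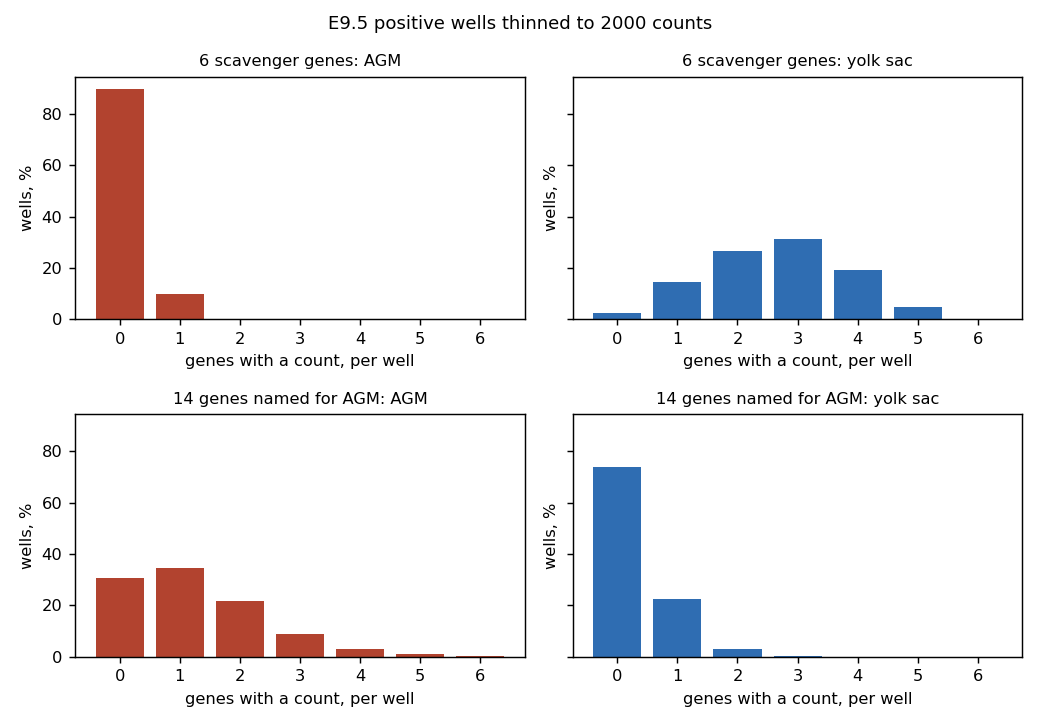
Share of VE-cadherin-positive E9.5 wells (vertical axis, %) by the number of genes of a set with a count in the well (horizontal axis), after thinning to 2000 counts, for the AGM (left) and the yolk sac (right). For the 6 scavenger genes 89.9% of AGM wells and 2.51% of yolk sac wells held none, whereas for the 14 genes named for the AGM 30.7% of AGM wells and 74.0% of yolk sac wells held none.

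The sequence before the start of Stab2 is shown because that gene led the yolk sac side, and that of Cd36 because it holds a core of the Maf recognition element, while Maf itself is a gene of that side. Cd36 was chosen after the matches had been seen. Both come from the RefSeq promoter table for GRCm38.p6, in which 9 of the 14 AGM genes and 7 of the 14 yolk sac genes matched. Each run is the 250 bases before the start annotated by RefSeq, read 5′ to 3′ on the gene's strand. For Stab2 that start lies inside the gene bounds given above, so the last part of its run overlaps them. Capitals mark GGAA, the core bound by ETS factors, in Stab2 (chr10:87007943-87008192, minus strand) and TGCTGA, the Maf core, in Cd36 (chr5:17835897-17836146, minus strand), each on either strand.
Stab2: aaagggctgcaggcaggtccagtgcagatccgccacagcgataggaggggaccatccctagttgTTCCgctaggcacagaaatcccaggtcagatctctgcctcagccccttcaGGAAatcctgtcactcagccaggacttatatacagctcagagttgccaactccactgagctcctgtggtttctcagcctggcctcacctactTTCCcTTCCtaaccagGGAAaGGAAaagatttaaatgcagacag
Cd36: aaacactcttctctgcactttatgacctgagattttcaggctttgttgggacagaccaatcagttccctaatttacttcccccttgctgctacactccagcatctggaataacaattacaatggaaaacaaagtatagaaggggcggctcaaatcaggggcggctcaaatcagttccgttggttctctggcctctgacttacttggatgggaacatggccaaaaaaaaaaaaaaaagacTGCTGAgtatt
Stab2 held 6 matches to GGAA. That core was present in 7 of 9 AGM promoters and 7 of 7 yolk sac promoters, against 93.4% of 27025 genes. TGCTGA was present in 0 of 9 AGM promoters and in 2 of 7 yolk sac promoters, those of Cd36 and Lyz2, against 15.8% of all genes. CTTTGA, the core bound by TCF and LEF factors, was in 1 of 9 AGM promoters and 1 of 7 yolk sac promoters, against 14.05% of all. None of the searched cores contains another, and these counts are descriptions of short windows in few genes.

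Genes of the machinery that carries and digests what such receptors take up were on the yolk sac side too. Of 17 lysosomal genes compared, 7 were at least 2-fold higher in the yolk sac (41.2%, against 6.08% of all genes) and none in the AGM, with a median of -0.85. They were the proteases Lgmn (-2.75), Ctsl (-1.27) and Tpp1 (-1.52), the granulin precursor Grn (-2.31), the acid lipase Lipa (-1.62), the hexosaminidase subunit Hexa (-1.31) and the membrane protein Lamp2 (-1.16). Of 19 clathrin endocytosis genes, 5 were higher in the yolk sac (26.3%, against 6.08% of all genes) and none in the AGM, with a list median of -0.65. Among the 5 were Ehd3, Dab2, the adaptor subunit Ap2s1 (-1.40) and the dynamin Dnm2 (-1.06). The clathrin heavy chain Cltc itself was within 2-fold at -0.54 (313 counts in the AGM, 330 in the yolk sac). Apoe, an apolipoprotein that many scavenging cells secrete, had 73 counts in the AGM against 401 in the yolk sac, with a log2 ratio of -2.92 (-3.30 to -2.56).

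**Figure D3:**
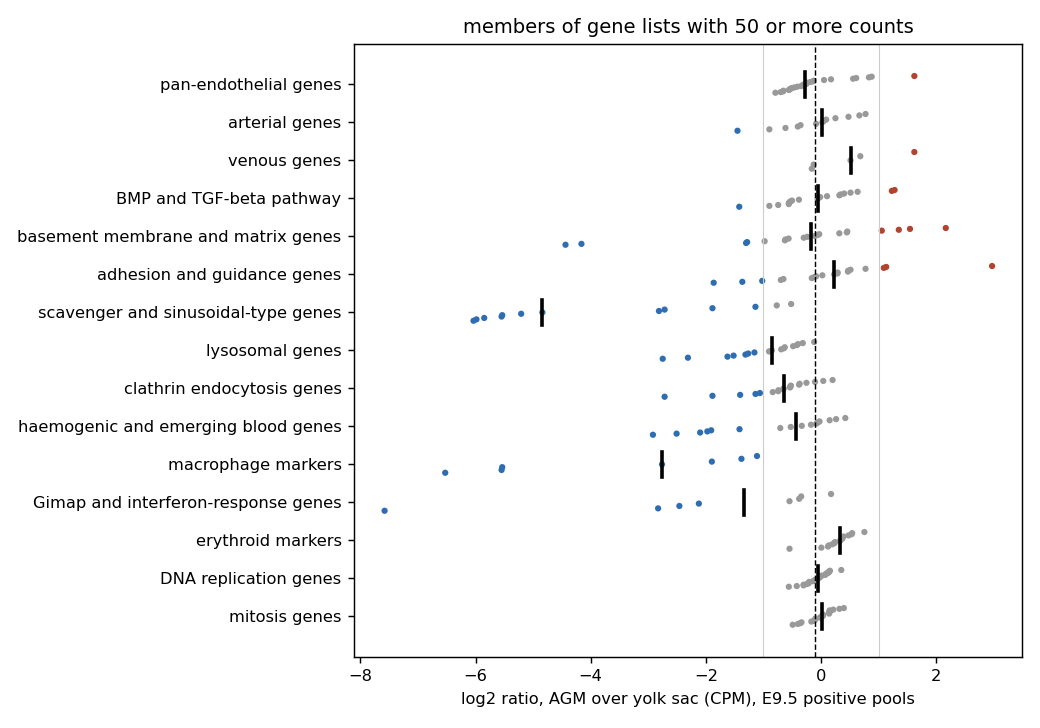
Log2 ratio of AGM over yolk sac (horizontal axis) for the compared members of 15 gene lists at E9.5; each point is a gene, red at least 2-fold higher in the AGM, blue at least 2-fold higher in the yolk sac, and black bars mark list medians beside the dashed median of all genes. Scavenger genes (median -4.84) and macrophage markers (-2.76) lie far to the left, while DNA replication (-0.06) and mitosis genes (0.02) sit at the middle. No macrophage marker had more than 34 counts in the AGM, so only those with enough yolk sac counts could be compared.

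The yolk sac pool also held RNA of leukocyte-type genes in a minority of its wells, whereas erythroid RNA was in every well of both pools. No macrophage marker had more than 34 counts in the AGM. Only markers with enough yolk sac counts could thus be compared, which favours calls on that side. Of 7 macrophage markers compared, 7 were at least 2-fold higher in the yolk sac (100%, against 6.08% of all genes). Beside Mrc1 these were Tyrobp and Fcer1g, signalling adaptors of myeloid receptors, the lysozyme Lyz2, the lysosomal protein Laptm5, the chemokine receptor Cx3cr1 and the Fc receptor Fcgr1. Tyrobp had 1 count in the AGM against 67 in the yolk sac (-6.53, interval -11.85 to -3.999), and Lyz2 had 3 in the AGM against 102 in the yolk sac (-5.55, interval -7.85 to -3.96; reads may be shared with its near copy Lyz1). Without the highest well of each pool, Cx3cr1 was at -0.71 in place of -1.38 and Fcgr1 at -0.62 in place of -1.11. Both were then within 2-fold, which left 5 of the 7 apart. Over all 18 markers in the table the sum was 65.7 CPM in the AGM and 820 CPM in the yolk sac, of which Mrc1 made 506 of 1134 counts. Of the 18, 7 were at 0 in the AGM pool and none in the yolk sac pool. At least 3 macrophage markers were found in 0 of 299 AGM wells and in 71 yolk sac wells (21.8%). The exact 95% limit for the AGM, 1.23%, covers only the counting of wells in this 1 pool at its depth. It is no limit on the share of such cells in the tissue. After thinning, at least 3 of these markers were found in 0 AGM wells and 16 yolk sac wells (5.02%). Mrc1, found in 5.02% of AGM wells and 65.8% of yolk sac wells, counts as 1 of these markers. Rac2, a GTPase of blood cells, had 8 counts in the AGM against 148 in the yolk sac (-4.67), and Plek, a signalling protein of platelets and leukocytes, 7 in the AGM against 181 in the yolk sac (-5.15). Of 6 megakaryocyte and platelet genes compared, 4 were higher in the yolk sac (66.7%, against 6.08% of all genes) and 1 in the AGM, with a median of -1.90. The 4 were Plek, the integrin chains Itga2b (-1.97) and Itgb3 (19 AGM against 49 yolk sac counts, -1.83) and the platelet chemokine Pf4 (8 AGM against 72 yolk sac counts, -3.63). The 1 was Vwf, the clotting protein of platelets and endothelium (68 AGM against 21 yolk sac counts, 1.23). Megakaryocyte and platelet genes were not particular to the positive gate. The 15 listed summed to 396 CPM in the yolk-sac-positive and 403 CPM in the yolk-sac-negative pool. In the negative gate 7 of 8 compared were higher in the yolk sac (87.5%, against 4.13% of all genes) and 0 in the AGM.

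These wells were set apart with 14 leukocyte genes chosen after the data had been seen, among them Tyrobp, Lyz2, Plek, Rac2, Ptprc, Csf1r and Mpo. At least 3 of them were found in 1 AGM well and in 82 yolk sac wells (25.2%), and at least 6 in 0 AGM wells and 15 yolk sac wells. After thinning, at least 3 were found in 0 AGM wells and 27 yolk sac wells (8.46%), and the 82 wells were deeper, with a median of 4786 counts against 3747 in the other 243. Stab2 and Lyve1 were detected in most wells of both sets, at a lower level in the 82. Stab2 was detected in 85.4% of the 82 yolk sac wells and in 89.7% of the other 243, and Cdh5 in 84.1% of the 82 and 77.4% of the 243. The level of Stab2 was 769 CPM in the 82 wells and 1019 CPM in the 243, that of Lyve1 782 CPM in the 82 and 1031 CPM in the 243, and that of Cdh5 350 CPM in the 82 and 545 CPM in the 243. In the 15 wells with 6 or more leukocyte genes Stab2 was at 296 CPM, Lyve1 at 407 CPM and Cdh5 at 237 CPM. Without the wells with 3 leukocyte genes, the log2 ratio of Stab2 was -5.96 and that of Lyve1 -5.31, against -5.85 and -5.21 with them, and 11 genes of the scavenger list were still higher in the yolk sac. Tyrobp was then at -5.25, Lyz2 at -3.88, Cx3cr1 at -0.46 and Fcgr1 at -0.07, which left 5 of the 7 macrophage markers apart. Over all genes, 146 were then at least 2-fold higher in the AGM and 281 in the yolk sac. Scrublet, which scores wells against simulated mixtures of cells, marked 1 AGM well and 6 yolk sac wells as doublets.

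**Figure D4:**
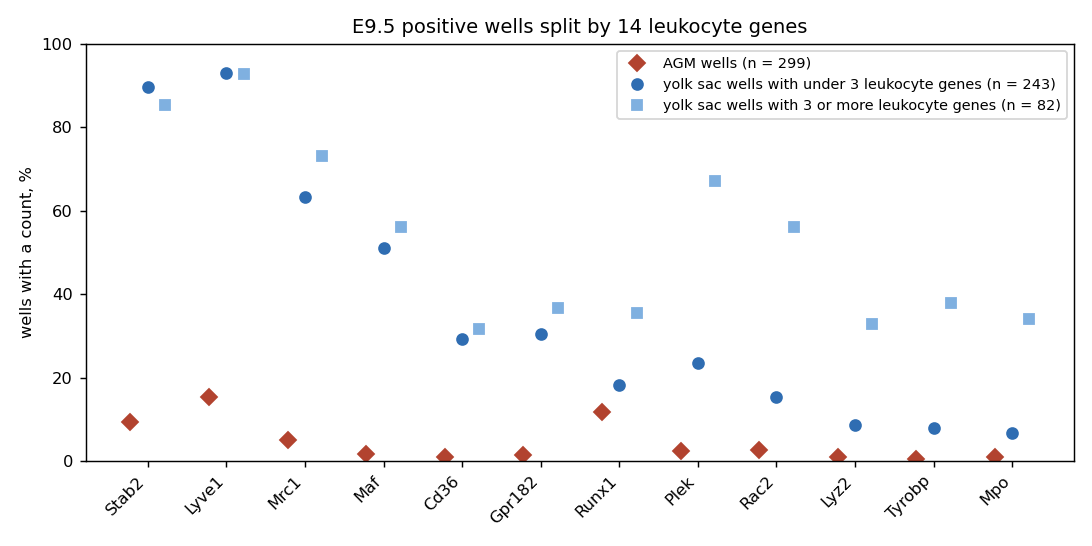
Share of E9.5 VE-cadherin-positive wells with a count of each gene (vertical axis, %) in 299 AGM wells, in 243 yolk sac wells with fewer than 3 of 14 leukocyte genes and in 82 yolk sac wells with 3 or more. Stab2 is at 9.36% in the AGM and at 89.7% and 85.4% in those yolk sac sets, whereas Tyrobp, like Plek, Rac2, Lyz2 and Mpo a gene of the 14, is at 0.334% in the AGM and at 7.82% and 37.8% in the yolk sac sets.

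Endothelium that makes blood carries a set of transcription factors and early blood receptors. Of 16 haemogenic and emerging blood genes, 6 were at least 2-fold higher in the yolk sac (37.5%, against 6.08% of all genes) and none in the AGM. The median was -0.43, and the count was 6 as well without the wells with leukocyte genes. The VE-cadherin-negative pools had this direction too. There 8 of 14 such genes were higher in the yolk sac (57.1%, against 4.13% of all genes). Another 5 were higher in the AGM (35.7%, against 52.3% of all genes), and the median was -1.19. Runx1, the transcription factor required for blood to arise from endothelium, had 44 counts in the AGM against 120 in the yolk sac, with a log2 ratio of -1.91 (-2.44 to -1.40), and was detected in 11.7% of AGM wells and 22.5% of yolk sac wells. Without the wells with leukocyte genes its log2 ratio was -1.54, and it was detected in 18.1% of those yolk sac wells. The adhesion receptor Adgrg1 (-2.92), the Ikaros relative Ikzf2 (-2.51), the homeobox gene Meis1 (-2.10), the integrin Itga2b, an early marker of blood commitment (-1.97), and the hyaluronan receptor Cd44 (-1.42) made up the other 5. Kit, the stem cell factor receptor, had 96 counts in the AGM against 88 in the yolk sac, with a log2 ratio of -0.33 (-0.77 to 0.10), and Gfi1b, a repressor acting below Runx1, had 48 in the AGM against 57 in the yolk sac, with a log2 ratio of -0.71 (-1.29 to -0.13). Ptprc, the pan-leukocyte antigen CD45, had 2 counts in the AGM against 19 in the yolk sac, too few to be compared by the rule.

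A few genes of interferon response and immune defence were on the yolk sac side as well. Of 8 Gimap and interferon-response genes compared, 4 were higher in the yolk sac (50.0%, against 6.08% of all genes) and none in the AGM, with a median of -1.33. Ifi27l2a, an interferon-inducible gene, had 1 count in the AGM against 139 in the yolk sac (-7.58, interval -12.89 to -5.08) and was found in 0.334% of AGM wells and 20.0% of yolk sac wells. Bst2, which tethers budding viruses (-2.83), Ifitm3, which blocks virus entry (-2.46), and the GTPase Gimap4 (-2.12) were the other 3. B2m, the light chain of class I MHC, had 115 counts in the AGM against 338 in the yolk sac, with a log2 ratio of -2.02 (-2.33 to -1.71). The remaining named genes of the yolk sac side were the tetraspanin Tspan7 (1 count in the AGM, 86 in the yolk sac, -6.89), Fcgrt, the neonatal Fc receptor that recycles IgG and albumin (3 in the AGM, 115 in the yolk sac, -5.72), and the fibril-associated collagen Col14a1 (15 in the AGM, 225 in the yolk sac, -4.37).

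The AGM side held fewer genes, and 8 of its 14 named genes were higher still in the VE-cadherin-negative pool of the AGM. None of the 14 on the yolk sac side was higher in the negative pool of its tissue. Lef1, a transcription factor that answers Wnt signals (chromosome 3, 131110471 to 131224356, plus strand), had 59 counts in the AGM against 2 in the yolk sac, with a log2 ratio of 4.42 (2.51 to 7.50). It had a count in 16.7% of AGM wells and 0.615% of yolk sac wells. Lef1 was at 31.0 CPM in the AGM endothelium, below the 79.4 CPM of the AGM-negative pool. The neural cadherin Cdh2 (97 counts in the AGM against 9 in the yolk sac, 2.97), the microfibril protein Fbn2 (179 AGM against 29 yolk sac counts, 2.17) and the ion pump regulator Fxyd6 (94 AGM against 11 yolk sac counts, 2.63) did likewise, as did the protogenin Prtg, a cell surface protein of early embryonic tissues (155 AGM against 25 yolk sac counts, 2.17), and the neural and mesenchymal factor Sox11 (83 AGM against 11 yolk sac counts, 2.46). Cdh2 was at 51.0 CPM in the AGM-positive pool and 151 CPM in the AGM-negative pool, Fbn2 at 94.1 CPM in the positive and 218 CPM in the negative, and Fxyd6 at 49.4 CPM in the positive and 77.7 CPM in the negative. Prtg was at 81.5 CPM in the AGM-positive pool and 291 CPM in the AGM-negative pool, and Sox11 at 43.6 CPM in the positive and 218 CPM in the negative. The part of RNA from neighbouring cells in these values was not tested.

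Other AGM genes were higher in the positive than in the negative pool. Trpc6, a calcium-permeable channel (chromosome 9, 8544142 to 8680741, plus strand), had 76 counts in the AGM against 5 in the yolk sac, with a log2 ratio of 3.47 (2.18 to 5.13). It was at 39.95 CPM in the positive pool of the AGM and 2.35 CPM in its negative pool. Piezo2, a mechanically gated channel, had 196 in the AGM against 33 in the yolk sac, with a log2 ratio of 2.11 (1.57 to 2.69). It was at 103 CPM in the AGM-positive and 10.6 CPM in the AGM-negative pool. Tmem255a, a membrane protein of little-known function, had 69 in the AGM against 5 in the yolk sac (3.33), with 36.3 CPM in the AGM-positive and 1.18 CPM in the AGM-negative pool. Each of the 3 had a higher level in AGM endothelium than in any of the other pools of the chip. The upstream sequence of Trpc6, as the member of this group with a RefSeq entry and the largest ratio, reads as follows (chr9:8543892-8544141, plus strand, 250 bases, GGAA on either strand in capitals, 2 matches).
Trpc6: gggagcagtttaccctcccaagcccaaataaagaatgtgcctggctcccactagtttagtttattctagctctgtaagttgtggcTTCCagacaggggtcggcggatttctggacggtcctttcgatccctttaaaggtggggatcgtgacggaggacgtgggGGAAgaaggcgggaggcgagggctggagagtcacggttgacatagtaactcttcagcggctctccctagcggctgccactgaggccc

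The remaining named genes were the transcription factor Zbtb7c (96 counts in the AGM against 8 in the yolk sac, 3.12), the transmembrane collagen Col23a1 (129 AGM against 17 yolk sac counts, 2.46, with 67.8 CPM in the AGM-positive and 69.4 CPM in the AGM-negative pool) and Asb4, a ubiquitin ligase subunit of the developing vasculature (95 AGM against 13 yolk sac counts, 2.41). To these came the smooth muscle protein Tagln (75 AGM against 8 yolk sac counts, 2.77, with 39.4 CPM in the AGM-positive and 53.5 CPM in the AGM-negative pool) and the pseudouridine synthase Pus7 (201 AGM against 21 yolk sac counts, 2.80). Of the 201 Pus7 counts in the AGM, 130 came from 1 well, and its ratio without the highest well of each pool was 1.45. Across wells, at least 3 of the 14 were found in 158 AGM wells (52.8%) and 7 yolk sac wells (2.15%), and after thinning in 39 AGM wells (13.2%) and 1 yolk sac well (0.313%). More of the VE-cadherin-negative wells of the AGM held 3 of them, 240 (67.8%) as counted and 102 (28.8%) after thinning, and 22 yolk-sac-negative wells (7.21%) as counted and 0 after thinning. Set against the negative pool of the same tissue, 31 of the 126 AGM-side genes had a level at least 2-fold higher in the positive pool and 32 at least 2-fold lower, where 6.46% of 7134 genes were higher and 15.8% lower in the positive pool. Of the 394 yolk-sac-side genes, 355 had a level at least 2-fold higher in the positive pool and 3 lower, where 37.3% of 6730 genes were higher and 1.86% lower. Of the AGM-side genes that could be compared in the VE-cadherin-negative pools, 85 of 99 were also at least 2-fold higher in the AGM there, where 52.3% of 7311 genes were. Of the yolk-sac-side genes, 36 of 265 were also higher in the yolk sac (4.13% of all) and 130 were higher in the AGM.

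Few genes of vessel identity and signalling were apart, though in several of these short lists the share was above that of all genes. Over all genes compared, 1.95% were higher in the AGM and 6.08% in the yolk sac. Higher in the AGM were 20.0% of venous, 10.0% of Notch, 10.0% of BMP and TGF-beta and 12.5% of Wnt genes. Higher in the yolk sac were 7.69% of arterial, 5.0% of BMP and TGF-beta, 50.0% of angiopoietin and 25.0% of Wnt genes. Of 13 arterial genes compared, none was higher in the AGM and 1 was higher in the yolk sac, the vascular growth factor Vegfc with 80 counts in the AGM against 159 in the yolk sac (-1.45, interval -1.86 to -1.06). The list median was 0.02. The arterial genes Sox17 (84 counts in the AGM against 59 in the yolk sac, 0.05), Efnb2 (95 AGM against 68 yolk sac counts, 0.02), Gja4 (79 AGM against 54 yolk sac counts, 0.09) and Notch1 (72 AGM against 67 yolk sac counts, -0.36) lay close to equal. Of 5 venous genes, Emcn alone was apart, and Nr2f2, the regulator of venous fate, was at 0.68 (64 AGM against 29 yolk sac counts). In the Notch pathway 1 of 10 genes was apart, the mural cell receptor Notch3 with 51 counts in the AGM against 5 in the yolk sac (2.89, interval 1.57 to 4.57). Notch3 was at 26.8 CPM in the AGM-positive and 30.0 CPM in the AGM-negative pool. Among 20 genes of the BMP and TGF-beta pathway, the targets Id2 (1.28) and Skil (1.23) were higher in the AGM and the receptor Tgfbr2 (-1.42) in the yolk sac. Of 4 angiopoietin genes, the ligand Angpt1 (20 counts in the AGM against 96 in the yolk sac, -2.72) and the phosphatase Ptprb (-1.06) were higher in the yolk sac, whereas the receptor Tek was at -0.70 (-0.91 to -0.50). Of 8 Wnt genes, Lef1 was higher in the AGM, and the repressor Tcf7l1 (-1.27) and the ligand Wnt5b (-1.83) were higher in the yolk sac. The Wnt5b value came through 1 well, and its log2 ratio was 0.16 without the highest well of each pool, and -0.08 without the wells with leukocyte genes.

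The matrix around the cells was split evenly. Of 20 basement membrane and matrix genes, 4 were higher in the AGM (20.0%, against 1.95% of all genes) and 4 in the yolk sac (20.0%, against 6.08%). In the AGM these were Fbn2, the hyaluronan link protein Hapln1 (630 counts in the AGM against 157 in the yolk sac, 1.54), the laminin chain Lamb1 (228 AGM against 65 yolk sac counts, 1.35) and the basement membrane collagen Col15a1 (40 AGM against 14 yolk sac counts, 1.05). In the yolk sac these were the aggrecanase Adamts5 (4 counts in the AGM against 63 in the yolk sac, -4.44), the transmembrane collagen Col13a1 (7 AGM against 91 yolk sac counts, -4.16), the nidogen Nid2 (-1.30) and the protease Adamts1 (-1.28). Of 19 adhesion and guidance genes, Cdh2 and the receptors Ptprg (476 AGM against 158 yolk sac counts, 1.13) and Nrxn3 (1.09) were higher in the AGM, and Flrt3 (-1.86), the guidance ligand Slit2 (-1.37) and Sema6a (-1.02) in the yolk sac. Without the yolk sac and AGM wells with leukocyte genes, Ptprg was at 0.88, Nrxn3 at 0.77 and Col15a1 at 0.995. Of 3 smooth muscle markers compared, Tagln and the actin Acta2 (61 counts in the AGM against 14 in the yolk sac, 1.66) were higher in the AGM, and the 10 markers summed to 114 CPM in the AGM and 62.9 CPM in the yolk sac. No mesenchymal or somite marker reached 50 counts over the pair, and mesenchymal markers summed to 37.3 CPM in the AGM and 86.8 CPM in the yolk sac, somite markers to 7.88 CPM in the AGM and 7.23 CPM in the yolk sac.

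Genes of several basic functions lay within 2-fold, as did 5958 of all 6478 genes compared. This held for all of 25 DNA replication genes (median -0.06), 22 mitosis genes (0.02), 79 ribosomal protein genes (-0.02), 13 glycolysis genes (0.18), 13 imprinted genes (-0.16) and 16 erythroid markers (0.34). No Hox gene could be compared singly. The 15 genes of groups 5 to 13 in the table summed to 91 counts (47.8 CPM) in the AGM and 53 counts (38.3 CPM) in the yolk sac. Visceral endoderm, the layer next to yolk sac vessels, left few counts: its 20 markers summed to 12.1 CPM in the AGM-positive pool and 129 CPM in the yolk-sac-positive pool, of which only Ttr, a thyroid hormone carrier, could be compared (-3.33).

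At E11.5 the AGM side was the larger one, though the difference between stages was not tested. There 294 of 3946 genes (7.45%) were at least 2-fold higher in the AGM and 107 (2.71%) in the yolk sac. These counts are on CPM, and the median log2 ratio of all genes was 0.25 at E11.5 against -0.10 at E9.5. Haemoglobin took 25.5% of AGM and 35.6% of yolk sac counts at E11.5, against 22.2% of AGM and 17.7% of yolk sac counts at E9.5. The part of scale in the change of sides was not tested. Of the 46 AGM-side genes of E9.5 that could be compared at both stages, 30 were again at least 2-fold higher in that tissue at E11.5 and 3 were at least 2-fold higher in the yolk sac. Of the 224 yolk-sac-side genes, 35 were again higher in the yolk sac, 20 were higher in the AGM and 169 lay between. Stab2 at -3.33, Gpr182 at -3.30 and Lyve1 at -1.79 were again at least 2-fold higher in the yolk sac, whereas Mrc1 stood at -0.83, Maf at -0.88 and Cd36 at -0.47. The E11.5 pools were shallower, with a median of 2532 counts per well in the AGM and 3008 in the yolk sac, and fewer of their wells held 3 endothelial markers, 51.6% in the AGM and 42.6% in the yolk sac. At least 3 of the 14 leukocyte genes were found in 47 AGM wells and 38 yolk sac wells.

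**Figure D5:**
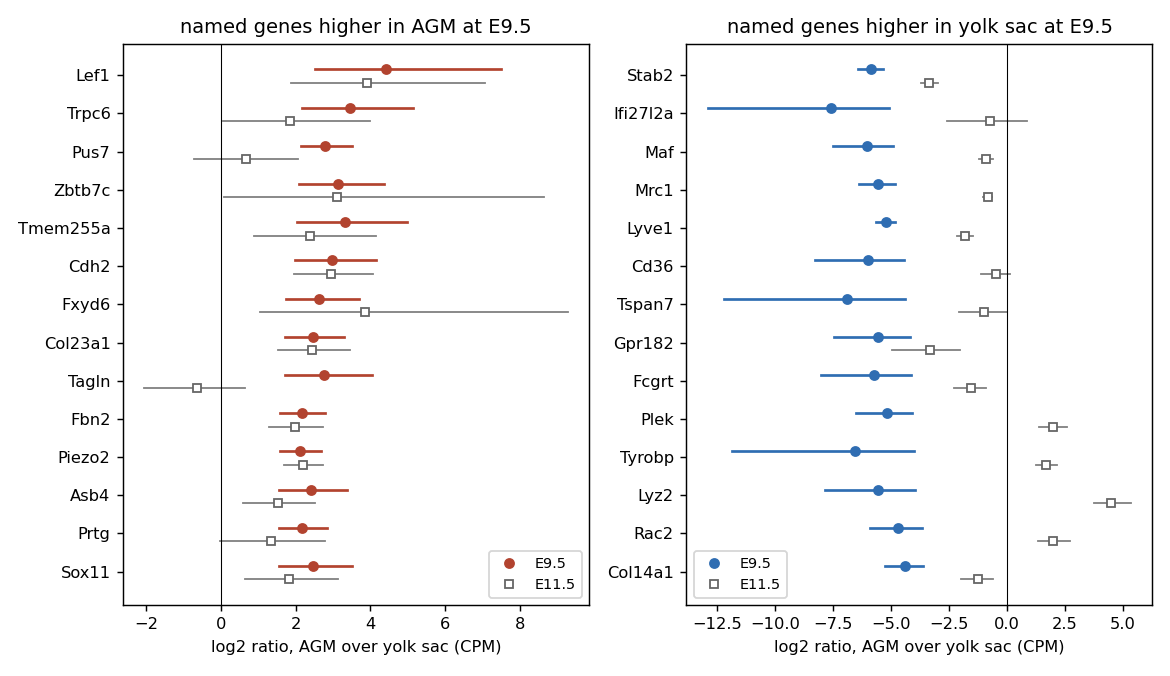
Log2 ratio of AGM over yolk sac (horizontal axis) with 95% counting intervals for the 14 genes named for the AGM (left) and for the yolk sac (right), at E9.5 (filled, coloured) and at E11.5 (open, grey). Of the AGM genes, Tagln is on the yolk sac side at E11.5 (-0.64) with an interval that takes in 0, whereas Plek, Tyrobp, Lyz2 and Rac2 of the yolk sac genes cross to the AGM side.

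Genes apart at E9.5 and not at E11.5 were sought among 3714 genes compared at both stages. The interval had to lie wholly beyond 2-fold at E9.5 and wholly within 2-fold at E11.5. This held for 28 genes (0.754%), all of them higher in the yolk sac at E9.5 and none in the AGM. The 6 with the firmest bound were Apoe (-2.92 at E9.5, 0.54 at E11.5), the endosomal proton exchanger Slc9a9 (-3.25 and -0.03), the lysosomal protease Lgmn (-2.75 and -0.07), the calcium-binding membrane protein Mctp1 (-2.76 and -0.23), the adhesion protein Tns1 (-2.73 and 0.04) and B2m (-2.02 and 0.06). The level of Apoe in the AGM was 38.4 CPM at E9.5 and 563 CPM at E11.5, and in the yolk sac 290 CPM at E9.5 and 388 CPM at E11.5. For B2m the AGM had 60.5 CPM at E9.5 and 246 CPM at E11.5, and the yolk sac 244 CPM at E9.5 and 236 CPM at E11.5. Also among the 28 were the lysosomal gene Grn, the clathrin adaptor subunit Ap2s1, the homeobox genes Meis1 and Meis2, the receptors Cd47 and Calcrl, and the galectins Lgals1 and Lgals9. With endothelial wells only at both stages the rule held for 11 genes, and with TMM scaling for 18. Stage, chip, depth and the share of endothelial wells move together here and cannot be told apart.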

How the data were processed

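Single cells of E9.5 and E11.5 embryos were measured on 2 ICELL8 chips. Per chip, the authors deposited a table of raw counts, whole numbers by gene and well with no normalization. Per the submitters' processing notes, FastQC, cutadapt and STAR were used on the reads and the builds named are mm10 and GRCm38. Tool versions, the counting step, its annotation and strand, and whether molecular identifiers were collapsed are not given in the sources used here, so counts may include copies of a molecule and overlapping genes may share reads. Wells were assigned to pools by the state label deposited with each chip. The chips shared 473 barcodes, which name wells and not cells.

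Wells with 500 or more genes were kept, raw counts were summed per pool and ratios of CPM were given exact 95% conditional binomial intervals; a pool with 0 counts was given a floor of 3 counts. The difference between stages rests on the intervals of both chips. No test across samples was possible with 1 sample per pool. Genes were named by rule: 50 or more counts in the higher pool and a count in 10% or more of its wells, no mitochondrial, ribosomal protein or unnamed genes, and the 14 in each direction with the interval bound farthest from 0; 6 per direction by the same bound for genes apart at E9.5 only; 8 genes of interest whatever their values; and examples from 35 gene lists. The members and the lists were chosen with earlier results of these data known. Thinning used 2000 counts per well. Doublets were scored with Scrublet and kept. The procedure was checked on simulated counts. Alternatives (17 planned, 2 added after seeing the data) covered well filters, scaling, including edgeR's TMM and DESeq2-style size factors, count minimums and the call rule. Software was Python 3.11.15, numpy 2.4.6, pandas 2.3.3, scipy 1.17.1, scanpy 1.11.5, R 4.3.3 and edgeR 4.0.16. Coordinates come from the GENCODE annotation of GRCm38 and upstream sequences from RefSeq GRCm38.p6. A result on 1 gene is not reported here.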

Additional observations from a re-analysis of the deposited data

Results flagged for a closer look

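For 7 named genes the log2 ratio of AGM over yolk sac had opposite signs at E9.5 and E11.5, with both counting intervals clear of 0; the difference was not tested across samples, and stage and chip are the same split. Of the macrophage and leukocyte genes, Lyz2 was at -5.55 at E9.5 and 4.51 at E11.5, Tyrobp at -6.53 and 1.70, Plek at -5.15 and 1.99, and Rac2 at -4.67 and 2.01. Wells with at least 3 of 14 leukocyte genes numbered 1 in the AGM and 82 in the yolk sac at E9.5, and 47 in the AGM and 38 in the yolk sac at E11.5. Runx1, needed for blood to arise from endothelium, was at -1.91 at E9.5 and 1.57 at E11.5, and at 1.55 in the endothelial wells of E11.5 alone. Apoe was at -2.92 and 0.54, and Pecam1 at -0.25 and 0.86.

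Haemoglobin RNA was also present in wells without sorted cells. It made up 0.921% of the counts in the positive control wells of the E9.5 chip, which received RNA of embryonic stem cells, and 23.1% in the negative control wells.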

How the results depend on the processing

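All 28 genes named for the 2 sides were at least 2-fold apart under each of the 14 alternatives that give values per gene. Having been picked for bounds far from 0 in these same counts, they could hardly fall within 2-fold. Over named genes, 1876 of 1974 values stayed within the counting interval of the reported value, 97 left it, and of genes called apart 1 changed sign (Wnt5b, 0.16 without the highest well). Of genes within 2-fold, Kit (-0.33 as reported) was at 0.065 in thinned wells and 0.090 without leukocyte wells, and Cdh5 (-0.15) was at 0.00073 with TMM. Over lists, 513 of 533 medians stayed within 0.5 of the reported value, 19 moved further, and the megakaryocyte median was 0.053 in place of -1.90 with 200 or more counts over the pair. None of the megakaryocyte and platelet genes called apart reached that minimum, so that median does not cover them. Genes higher in the AGM numbered 32 in thinned wells, 327 with a minimum of 20 counts, 14 with 200, 2176 without a minimum, 33 at 4-fold and 41 with the interval beyond 2-fold. Genes higher in the yolk sac numbered 181, 864, 85, 3833, 101 and 160 under the same settings. Genes apart at E9.5 only, 28 as reported, numbered 10 with 1000 or more genes and 10% or less mitochondrial counts per well, 11 in endothelial wells, 18 with TMM, 17 with median-of-ratios factors, 6 in thinned wells and 7 with 200 or more counts; thinning and higher minimums leave fewer genes to compare, and the cause of the other shifts was not tested. No paired analysis was possible because each pool is 1 sample and the labels carry no replicate numbers. Depth limits low genes: most of the 20575 gene rows, all but 6478, had fewer than 50 counts over the pair.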

Other observations

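Several genes of mature myeloid and antigen-presenting cells were found in few yolk sac wells; they were singled out after their values had been seen. Retnla, a secreted protein of alternatively activated macrophages, had 0 counts in the AGM-positive pool and 132 counts in 17 yolk-sac-positive wells, 77 of them in 1 well. H2-Aa, the alpha chain of a class II MHC molecule, had 0 counts in the AGM and 74 counts in 23 yolk sac wells, 35 of them in 1 well. Its partner H2-Ab1 had 6 counts in 4 AGM wells and 46 counts in 13 yolk sac wells. The chemokine Ccl6 had 1 count in 1 AGM well and 60 counts in 25 yolk sac wells, and Retn, a relative of Retnla, 5 counts in 5 AGM wells and 75 counts in 16 yolk sac wells. With Cd74 and Alox5ap these make 7 genes. No AGM well held 3 of the 7, whereas 2 yolk sac wells did, 1 of them all 7, and those 2 wells held 236 of the 473 counts that the 7 genes had in the yolk sac pool. Both wells also had counts of Stab2, Lyve1 and Ptprc and at least 3 of the 12 endothelial markers.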
